A study of Mus musculus with 14 samples.

Results

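The genes described here are 10 regulators and direct targets of the integrated stress response: Atf4, Ddit3, Atf3, Atf5, Nupr1, Trib3, Ppp1r15a, Chac1, Sesn2 and Ddit4. They were chosen by name, as known members of the ATF4 and CHOP branch, out of 24411 genes in the count files. Earlier results of these data were known when they were chosen. All 10 were present in every file, and 9 passed the filter on low counts that precedes the test. Atf3 did not pass.

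Liver RNA came from male littermate mice aged 5 to 7 months that all carried Rbbp5 (flox/flox) alleles. WT mice were Alb-CRE (-/-), and LKO mice were Alb-CRE (+/-), so that the albumin promoter drives the recombinase in hepatocytes while other liver cells keep Rbbp5, which encodes a subunit of histone H3 lysine 4 methyltransferase complexes. Each mouse received an intraperitoneal injection of 500 µl in the morning, either 3% DMSO in PBS (vehicle) or tunicamycin at 0.05 mg/kg, an inhibitor of N-linked glycosylation that causes misfolded proteins to gather in the endoplasmic reticulum (ER). The liver was collected 8 h after injection. Each WT group had 3 libraries and each LKO group 4. LKO vehicle replicates 3 and 4 agreed nearly within sampling noise, with a chi-square per gene of 1.12 against 3.38 to 25.9 in the other pairs of 1 group. Their reads were summed as sample 3+4, which leaves 13 samples.

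In the integrated stress response, kinases that sense different stresses phosphorylate the translation factor eIF2. The one that senses the ER is PERK, encoded by Eif2ak3. General translation falls, while the mRNA of the transcription factor ATF4 is translated better because of short reading frames ahead of its coding sequence. ATF4 then induces further transcription factors, among them CHOP (encoded by Ddit3), ATF3 and ATF5, and targets that restore translation, change amino acid and redox metabolism or promote cell death. Because much of the control of ATF4 acts on translation, its mRNA level does not report its protein.

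Depth limits several of these genes. Reads on the gene's strand numbered 6507018 to 13519421 per library, and 1704479 to 3551398 once Rn45s, a ribosomal RNA gene that took 72.5 to 75.5% of them, was set aside. The library labelled LKO vehicle 1 had Rbbp5 at 4.14 CPM (a gene's reads scaled to a common library size), inside the WT vehicle range of 4.06 to 6.40 CPM, and the Rbbp5 differences between genotypes missed the threshold (log2 fold change -0.87 ± 0.26 SE with vehicle and -0.90 ± 0.25 SE after tunicamycin, edgeR adjusted p = 0.329 and 0.105). Hepatocyte markers summed to between 15139 and 26791 CPM in all samples, and no gene of that list was at 0 reads in any group. Marker sums of several other cell types differed between groups. Kupffer cell and macrophage markers had 56.3 to 64.1 CPM in WT vehicle and 59.2 to 74.1 CPM in WT tunicamycin samples. In LKO liver they had 43.2 to 70.3 CPM with vehicle and 62.9 to 125.5 CPM with tunicamycin. LKO tunicamycin samples 2 and 4 were the high ones, at 125.5 and 110.6 CPM. Bile duct markers had 8.59 to 11.8 CPM in WT vehicle, 8.48 to 42.6 CPM in WT tunicamycin, 17.4 to 55.1 CPM in LKO vehicle and 35.7 to 110.5 CPM in LKO tunicamycin samples, and Cldn4, 1 of the 6, had 0 reads in both LKO groups. Neutrophil markers had 0.384 to 1.02, 0.462 to 9.34, 0.946 to 2.77 and 4.55 to 8.31 CPM in the same order, and Retnlg, 1 of the 5, had 0 reads in WT vehicle samples. Stellate cell and fibroblast markers had 68.9 to 110.7, 93.8 to 132.6, 116.0 to 157.5 and 111.3 to 170.2 CPM, so that the genotypes did not overlap with vehicle. Lymphocyte markers had 0.239 to 0.583, 0 to 0.162, 0.296 to 0.946 and 0.509 to 0.798 CPM, lowest in WT tunicamycin samples, where Cd3e, Cd79a and Nkg7 had 0 reads. Their part in the results was not tested. In whole liver, fewer cells of a type and less RNA per cell cannot be told apart.

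ATF4 binds, with a C/EBP partner, to composite elements whose core was searched as TGATGNAA on both strands of the RefSeq promoter windows, which run from 250 bases before to 50 after each gene's start (build GRCm38.p6). All 10 genes had a window. The core was found in 4 of the 10, namely Atf3, Chac1, Nupr1 and Trib3, and in 4.51% of the 27025 genes in the RefSeq table. In Trib3 the match began 15 bases after the RefSeq start, so it is not shown. The GENCODE annotation starts Trib3 at chr2:152344032, and the end of this window was not found in its GENCODE transcripts. Whether this match lies inside the transcript therefore depends on the annotation. The other matches are shown because they place the same letters upstream of the RefSeq start of 3 members, of which Nupr1 passed the test. Distances below are from the RefSeq start. In GENCODE, Atf3 and Nupr1 reach to chr1:191218039 and chr7:126630861, so their cores lie inside the annotated genes. Capitals mark the core, which reads as its reverse complement on the gene's strand.

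Atf3 (chr1:191183396-191183483, - strand, core 110 bases before the start): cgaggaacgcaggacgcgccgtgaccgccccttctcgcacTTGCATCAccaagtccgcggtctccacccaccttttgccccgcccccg
Nupr1 (chr7:126625533-126625620, - strand, core 110 bases before the start): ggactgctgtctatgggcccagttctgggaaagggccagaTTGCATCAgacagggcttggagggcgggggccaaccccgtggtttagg
Chac1 (chr2:119351009-119351096, + strand, core 193 bases before the start): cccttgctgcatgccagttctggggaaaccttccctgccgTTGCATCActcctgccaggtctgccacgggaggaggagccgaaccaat

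The cAMP response element, TGACGTCA, to which ATF and CREB factors bind, was found in the window of Ppp1r15a alone among the 10 genes, and in 2.03% of genes in the table. It is printed with the element in capitals, because Ppp1r15a did not pass the test in any comparison. The ER stress element (CCAAT, 9 bases, CCACG) was in 0 of the 10 windows and in 0.137% of genes, and the unfolded protein response element core, TGACGTGG, was in 0 of the 10 and in 0.714% of genes. These matches describe letters in the windows and were not tested as binding sites.

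Ppp1r15a (chr7:45526269-45526320, - strand, element 12 bases before the start): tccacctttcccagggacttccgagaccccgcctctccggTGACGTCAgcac

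Before treatment, the 10 genes spanned a wide range of levels. In FPKM, the authors' length-scaled unit, WT vehicle samples averaged 6.74 ± 1.03 for Atf5 and 4.96 ± 0.29 for Atf4 (SD, n = 3). The other 8 genes lay below 1 FPKM, from 0.953 ± 0.522 for Ddit4 and 0.879 ± 0.462 for Ddit3 down to 0.221 ± 0.193 for Nupr1, 0.150 ± 0.115 for Trib3 and 0.0349 ± 0.0345 for Atf3. In the WT tunicamycin samples Ddit3 averaged 9.68 ± 7.91 FPKM and Nupr1 7.79 ± 6.31, beside 9.05 ± 1.41 for Atf5 and 6.69 ± 2.04 for Atf4. The SDs of Ddit3 and Nupr1 nearly equal their means because 1 of the 3 samples stayed low.

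In WT liver, tunicamycin was compared with vehicle to ask what the low dose does to this branch 8 h later. Ddit3 and Nupr1 passed the test, both upward, so 2 of the 9 genes tested were called, where 0.363% of all 9644 genes tested were called in this comparison. The median log2 fold change was 0.55 over the 9 genes and 0.01 over all genes. Nupr1 reached the filter's minimum of 1.28 CPM in 2 WT tunicamycin samples and 1 LKO tunicamycin sample and in no vehicle sample, so its entry into the test came from treated groups. In LKO liver tunicamycin gave 0 calls among the 9 genes. After tunicamycin, Ddit3, Nupr1 and Trib3 had lower levels in LKO liver than in WT liver.

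Ddit3 (chr10:127290793-127296288 in mm10, as given in the authors' FPKM table) encodes CHOP, a C/EBP family factor known for promoting death under lasting ER stress. It had 10, 5 and 13 reads in WT vehicle samples 1 to 3, or 1.20, 0.640 and 1.89 CPM. In WT tunicamycin samples 1 to 3 it had 191, 8 and 132 reads, or 26.2, 1.29 and 20.3 CPM. Samples 1 and 3 were far above every vehicle sample and sample 2 lay among them, so the groups overlapped. The ratio of mean CPM was 12.8, and the log2 fold change was 3.71 ± 0.72 SE (edgeR adjusted p = 0.0400).

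In LKO vehicle samples 1, 2 and 3+4, Ddit3 had 4, 6 and 14 reads, or 0.473, 0.437 and 0.829 CPM. In LKO tunicamycin samples 1 to 4 it had 3, 3, 20 and 8 reads, or 0.399, 0.390, 2.03 and 0.867 CPM. Sample 3 exceeded the LKO vehicle range, sample 4 barely did, and no LKO sample came near WT tunicamycin samples 1 and 3. The change in LKO was 0.67 ± 1.02 SE on the log2 scale (edgeR adjusted p = 0.850). After tunicamycin the mean CPM of Ddit3 was 17.3-fold lower in LKO than in WT liver, a log2 difference of -4.02 ± 0.66 SE (edgeR adjusted p = 0.0149), although WT tunicamycin sample 2 lay inside the LKO range. With vehicle the difference was -0.98 ± 1.08 SE (edgeR adjusted p = 0.866).

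Ddit3 shares 68 bases with Mars, a tRNA synthetase gene on the opposite strand. The count column used holds reads on the gene's strand. Reads opposite to Ddit3 summed to 9 in WT vehicle, 14 in WT tunicamycin, 18 in LKO vehicle and 19 in LKO tunicamycin samples, and did not follow the rise of Ddit3. Mars itself had 7.53 to 12.5 CPM in WT vehicle and 9.87 to 11.8 CPM in WT tunicamycin samples, and its log2 fold change was -0.01 ± 0.17 SE (edgeR adjusted p = 0.988).

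Nupr1 (chr7:126623246-126625470) encodes a small nuclear protein that is induced by many stresses and is a known target of ATF4. It had 1, 2 and 4 reads in the WT vehicle samples and 77, 4 and 87 reads in the WT tunicamycin samples, or 0.120, 0.256 and 0.583 against 10.6, 0.647 and 13.4 CPM. The groups did not overlap in CPM, but WT tunicamycin sample 2 and WT vehicle sample 3 had 4 reads each. The ratio of mean CPM was 25.7, and the log2 fold change 4.70 ± 0.85 SE (edgeR adjusted p = 0.0382).

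Nupr1 reads in the LKO samples numbered 1, 4 and 4 with vehicle, or 0.118, 0.292 and 0.237 CPM, and 1, 4, 5 and 12 with tunicamycin, or 0.133, 0.520, 0.509 and 1.30 CPM. All but LKO tunicamycin sample 1 were above the LKO vehicle range, by a few reads. The log2 fold change in LKO was 1.42 ± 1.10 SE (edgeR adjusted p = 0.662). After tunicamycin the log2 difference between LKO and WT was -3.67 ± 0.66 SE (edgeR adjusted p = 0.0189), with a mean CPM 13.3-fold lower in LKO.

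Trib3 (chr2:152337425-152344060) encodes a pseudokinase that binds AKT and ATF4 and is induced by both ATF4 and CHOP. Reads in WT vehicle samples 1 to 3 numbered 4, 2 and 9 (0.478, 0.256 and 1.31 CPM), and in WT tunicamycin samples 1 to 3 they numbered 67, 4 and 56 (9.20, 0.647 and 8.63 CPM). As for Ddit3 and Nupr1, WT tunicamycin samples 1 and 3 were high and sample 2 was low. Sample 2 lay inside the vehicle range for Trib3 and Ddit3, and slightly above it for Nupr1. The mean ratio was 9.04 and the log2 fold change 3.23 ± 0.69 SE, which just missed the threshold (edgeR adjusted p = 0.0510) and passed it under 8 of 23 alternative settings.

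In LKO liver Trib3 had 2, 7 and 6 reads with vehicle (0.237, 0.510 and 0.355 CPM) and 9, 6, 10 and 3 reads with tunicamycin (1.20, 0.780, 1.02 and 0.325 CPM). Of the LKO tunicamycin samples, 1, 2 and 3 were above the LKO vehicle range and sample 4 was inside it. The change was 1.07 ± 0.86 SE on the log2 scale (edgeR adjusted p = 0.671). After tunicamycin Trib3 was lower in LKO than in WT by a log2 difference of -2.91 ± 0.59 SE (edgeR adjusted p = 0.0332), a 7.42-fold difference in mean CPM.

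These 3 genes had lower levels in LKO than in WT liver after tunicamycin, which makes 3 of the 9 tested. Over all genes, 0.861% were called in either direction. Trib3 reached the filter's minimum of 1.28 CPM in 2 WT tunicamycin samples, 1 WT vehicle sample and no LKO sample. Nupr1 reached it in 2 WT tunicamycin samples and 1 LKO tunicamycin sample. Both thus entered the test through the WT tunicamycin samples where they were high, so their calls are not independent of the filter. Without WT tunicamycin sample 1 the comparison gave 0 calls among the 9 genes and 0 over all genes (83 with every sample), while the log2 differences were -3.46 for Ddit3, -3.45 for Nupr1 and -2.50 for Trib3. Ddit3 was the 1 member called without WT tunicamycin sample 3 or without LKO tunicamycin sample 2, 3 or 4, and Nupr1 was not tested in the last of these fits. In all of these fits each value for the 3 genes was -2.50 or lower.

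The 2 WT calls were lost in 7 fits that each left out 1 sample. Without WT vehicle sample 1, 2 or 3 or WT tunicamycin sample 1, calls over all genes numbered 0, 0, 2 and 0 (35 with every sample), and the log2 fold change of Ddit3 lay between 3.14 and 4.09. Without LKO tunicamycin sample 2, 3 or 4 Ddit3 kept 3.71, with edgeR adjusted p of 0.0536, 0.0519 and 0.0614, and Nupr1 was not tested without sample 4. Without LKO tunicamycin sample 1 Nupr1 was the 1 call. Over all genes, WT tunicamycin sample 3 differed most from the others of its group (chi-square per gene 25.9 and 25.8 against samples 1 and 2, which differed by 6.23), and without it 615 genes were called in WT, Ddit3, Nupr1 and Trib3 among them.

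**Figure D1:**
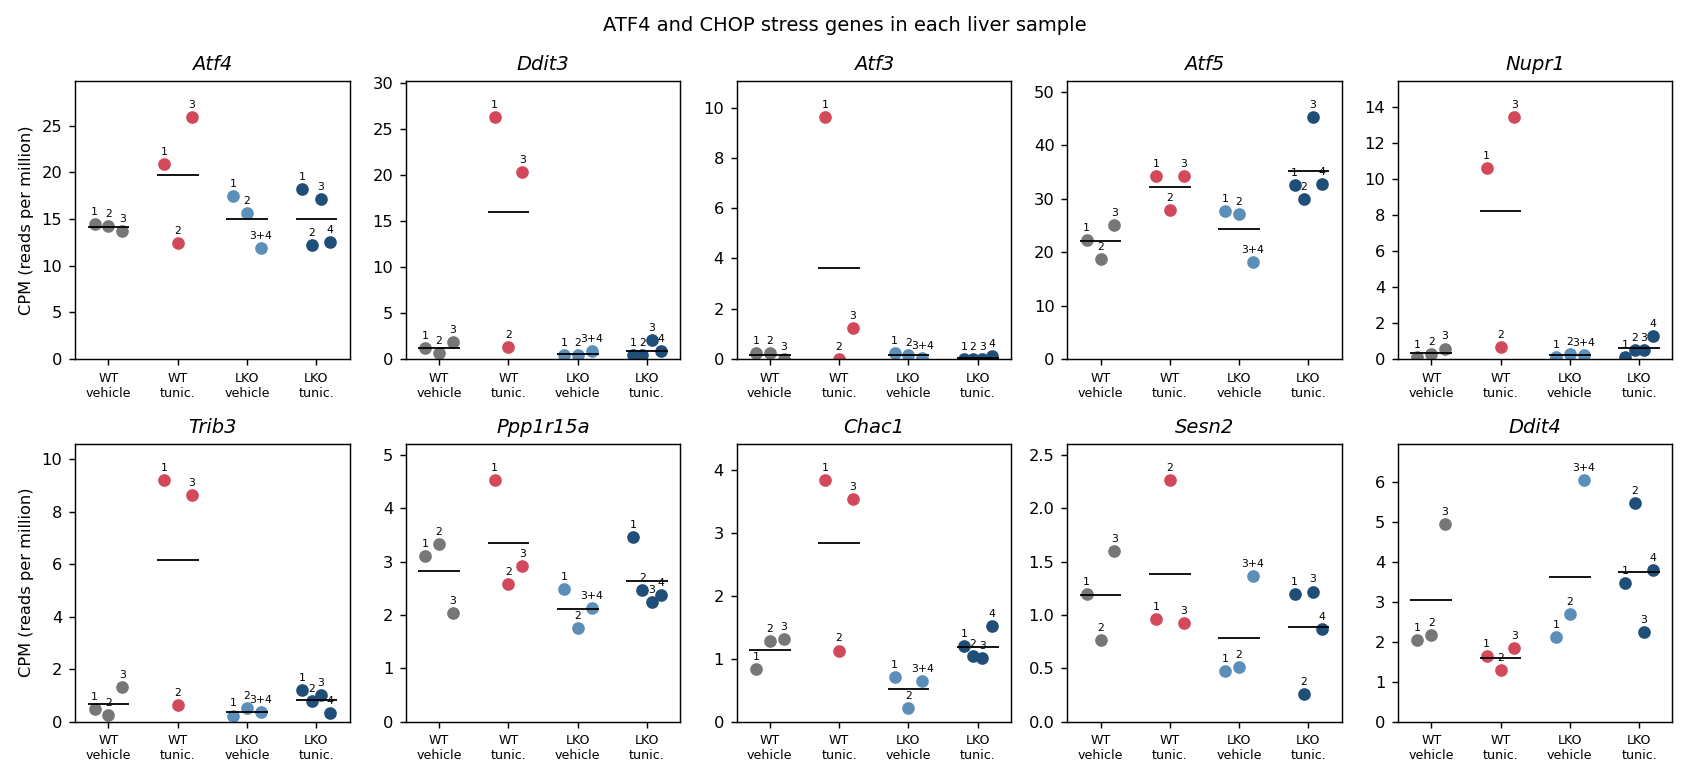
CPM (linear axes from 0) of each gene in the 13 liver samples, by group. Points are samples with their replicate number, 3+4 is the summed LKO vehicle sample, and black lines are group means. Samples 1 and 3 of WT tunicamycin stand apart for Ddit3 (26.2 and 20.3 CPM), Nupr1 and Trib3. Sample 2 (1.29 CPM for Ddit3) lies inside the WT vehicle range for Ddit3 and Trib3 and slightly above it for Nupr1.

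Atf4 (chr15:80255184-80257545), the factor at the head of the branch, had 14.5, 14.2 and 13.7 CPM in WT vehicle and 20.9, 12.5 and 25.9 CPM in WT tunicamycin samples, from 94 to 121 and from 77 to 168 reads. Samples 1 and 3 were again high and sample 2 low. The log2 fold change of 0.49 ± 0.22 SE did not pass (edgeR adjusted p = 0.327). In LKO liver, vehicle samples had 17.5, 15.6 and 11.9 CPM and tunicamycin samples 18.2, 12.2, 17.1 and 12.6 CPM. These ranges nearly coincide, and the log2 fold change was 0.02 ± 0.20 SE (edgeR adjusted p = 0.990). The difference between genotypes after tunicamycin was -0.40 ± 0.21 SE (edgeR adjusted p = 0.367).

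Atf5 (chr7:44812256-44816658), a further bZIP factor whose mRNA is also under translational control, was the member with the highest mean FPKM in each group but WT tunicamycin, where Ddit3 was higher. It had 22.4, 18.7 and 25.0 CPM in WT vehicle samples and 34.3, 27.8 and 34.2 CPM in WT tunicamycin samples. In LKO liver it had 27.8, 27.2 and 18.1 CPM with vehicle and 32.6, 29.9, 45.3 and 32.8 CPM with tunicamycin. Every treated sample was above every vehicle sample of its genotype, including WT tunicamycin sample 2. The log2 fold changes were 0.55 ± 0.19 SE in WT and 0.54 ± 0.17 SE in LKO, and neither passed (edgeR adjusted p = 0.176 and 0.247). The genotypes differed by 0.13 ± 0.17 SE after tunicamycin (edgeR adjusted p = 0.766).

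Atf3 (chr1:191170297-191183333) encodes a stress-induced factor of the same family. It had 2, 2 and 0 reads in WT vehicle, 70, 0 and 8 in WT tunicamycin, 2, 2 and 1 in LKO vehicle and 0, 0, 0 and 1 in LKO tunicamycin samples. WT tunicamycin sample 1 held 70 of the 78 reads of its group, and the gene met the filter's minimum in that sample alone. With no filter on low counts, edgeR over 16251 genes called Atf3 higher with tunicamycin in WT (adjusted p = 0.000653) and, after tunicamycin, lower in LKO than in WT (adjusted p = 7.63e-06).

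The targets that act on translation, redox state and growth signalling gave a mixed picture. Chac1 (chr2:119351242-119354327), which encodes an enzyme that degrades glutathione, had 7, 10 and 9 reads in WT vehicle and 28, 7 and 23 in WT tunicamycin samples, or 0.837, 1.28 and 1.31 against 3.85, 1.13 and 3.54 CPM. In LKO liver it had 6, 3 and 11 reads with vehicle and 9, 8, 10 and 14 with tunicamycin, or 0.710, 0.219 and 0.652 against 1.20, 1.04, 1.02 and 1.52 CPM. In WT the groups overlapped through sample 2, in LKO they did not overlap, and with vehicle every LKO sample was below every WT sample.

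For Chac1 the log2 fold changes with tunicamycin were 1.34 ± 0.43 SE in WT and 1.20 ± 0.46 SE in LKO (edgeR adjusted p = 0.155 and 0.325). The genotype differences were -1.12 ± 0.51 SE with vehicle and -1.26 ± 0.38 SE after tunicamycin (edgeR adjusted p = 0.586 and 0.127). None of these 4 values passed the threshold. Without WT tunicamycin sample 2, the low one, the last was -1.62 and passed (edgeR adjusted p = 0.0231). It passed in that 1 of 23 alternative settings alone. Chac1 reached the filter's minimum of 1.28 CPM in 2 WT tunicamycin samples, 1 WT vehicle sample and 1 LKO tunicamycin sample. Its entry into the test leaned on the WT tunicamycin samples where it was high, so this call is not independent of the filter.

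Ppp1r15a (chr7:45522917-45526268) encodes GADD34, the phosphatase subunit that reverses eIF2 phosphorylation. Its reads numbered 26, 26 and 14 in WT vehicle, 33, 16 and 19 in WT tunicamycin, 21, 24 and 36 in LKO vehicle and 26, 19, 22 and 22 in LKO tunicamycin samples. The ranges were 2.04 to 3.33, 2.59 to 4.53, 1.75 to 2.48 and 2.24 to 3.46 CPM in that order, so that in each genotype the treated and vehicle samples overlapped. The log2 fold changes with tunicamycin were 0.25 ± 0.28 SE in WT and 0.32 ± 0.25 SE in LKO (edgeR adjusted p = 0.730 and 0.668).

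Sesn2 (chr4:132492807-132510456) encodes sestrin 2, an inhibitor of mTORC1 signalling. It had 10, 6 and 11 reads in WT vehicle, 7, 14 and 6 in WT tunicamycin, 4, 7 and 23 in LKO vehicle and 9, 2, 12 and 8 in LKO tunicamycin samples. Here WT tunicamycin sample 2 was the highest of its group, at 2.27 CPM, against 0.962 and 0.925 CPM in samples 1 and 3. The log2 fold changes were 0.21 ± 0.54 SE in WT and 0.09 ± 0.49 SE in LKO (edgeR adjusted p = 0.895 and 0.968), and the WT value turned to -0.31 without that sample.

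Ddit4 (chr10:59949675-59951770) encodes REDD1, a further mTORC1 inhibitor that also responds to glucocorticoids and hypoxia. It had 17, 17 and 34 reads in WT vehicle and 12, 8 and 12 in WT tunicamycin samples, or 2.03, 2.17 and 4.95 against 1.65, 1.29 and 1.85 CPM. In LKO liver it had 18, 37 and 102 reads with vehicle and 26, 42, 22 and 35 with tunicamycin, or 2.13, 2.70 and 6.04 against 3.46, 5.46, 2.24 and 3.79 CPM. It was the 1 member with lower values in every WT tunicamycin sample than in every WT vehicle sample, and with higher values in every LKO than in every WT sample after tunicamycin. Neither difference passed, at -0.89 ± 0.51 SE in WT and 1.19 ± 0.46 SE between genotypes on the log2 scale (edgeR adjusted p = 0.440 and 0.222).

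Counted by non-overlap of CPM, tunicamycin separated 3 of 9 genes from vehicle in WT (Atf5 and Nupr1 higher, Ddit4 lower) and 2 of 9 in LKO (Atf5 and Chac1 higher). The genotypes were separated for 1 of 9 with vehicle (Chac1, lower in LKO) and for 1 of 9 after tunicamycin (Ddit4, higher in LKO). Over all genes tested, 17.3%, 11.6%, 15.1% and 12.9% did not overlap in these 4 comparisons. Ddit3, Nupr1 and Trib3, which were called between genotypes after tunicamycin, are not among the genes separated there, since WT tunicamycin sample 2 lay inside the LKO range for each.

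In LKO liver, 0 of the 9 genes were called with tunicamycin, against 0.0311% of all genes, and 2 of the 9 had an unadjusted p under 0.05 in edgeR (Atf5 and Chac1). With vehicle, 0 of the 9 genes were called between genotypes, against 0.0415% of all genes, and 1 (Chac1) had an unadjusted p under 0.05. DESeq2 called 0 in both comparisons, but gave no adjusted p for 7 of the 9 in the first. The median log2 fold change over the 9 genes was 0.54 with tunicamycin in LKO and -0.44 between genotypes with vehicle, where the medians over all genes were 0.00 for each.

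Whether the tunicamycin effect itself differed between genotypes was tested as an interaction. It gave 0 calls among the 9 genes, and 0% of all 9644 genes were called. The interaction was -3.04 ± 1.35 SE for Ddit3, -3.28 ± 1.69 SE for Nupr1, -2.15 ± 1.20 SE for Trib3, -0.47 ± 0.30 SE for Atf4 and 0.85 ± 0.62 SE for Ddit4 on the log2 scale. The edgeR adjusted p was 0.947 for Ddit3 and 0.981 or 0.982 for the others. Of the 9 genes, Ddit3 alone had an unadjusted p under 0.05, as did 474 of all genes tested, and DESeq2 called 0 genes. So a larger effect of tunicamycin in WT than in LKO was not shown for any member by this test, and the SEs of Ddit3, Nupr1 and Trib3, above 1 log2 unit, leave wide intervals.

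**Figure D2:**
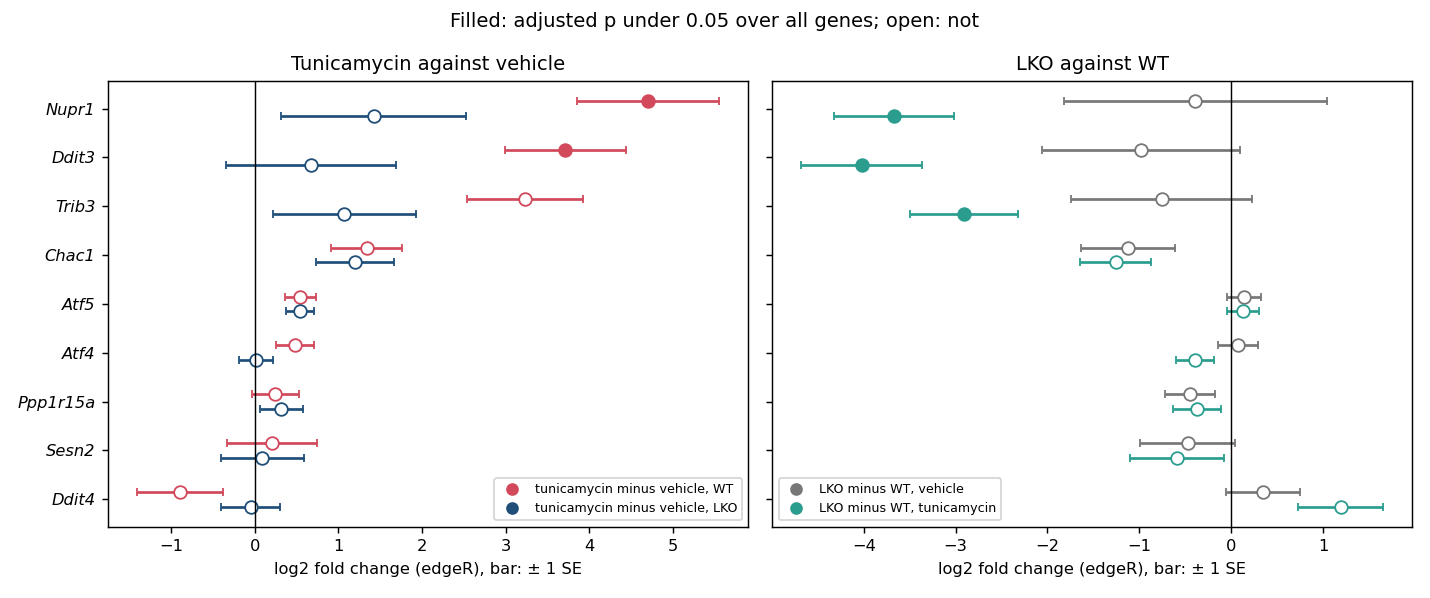
Log2 fold changes from edgeR with bars of ± 1 SE for the 9 genes tested (rows), for tunicamycin minus vehicle in WT and LKO (left) and for LKO minus WT with each treatment (right). Filled points passed an adjusted p of 0.05 over all genes; these are Nupr1 and Ddit3 in WT (4.70 and 3.71) and Ddit3, Nupr1 and Trib3 between genotypes after tunicamycin (-4.02, -3.67 and -2.91).

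Outside the 10 genes, those whose log2 CPM followed Ddit3 most closely over the 13 samples were Stx5a (Pearson r = 0.94), Vimp (0.93), Hspa5 (0.93), Pvr (0.92) and Tfg (0.90), with Spearman rho of 0.82, 0.66, 0.68, 0.79 and 0.76. These are descriptions, and the high Ddit3 values of WT tunicamycin samples 1 and 3 weigh on them. Over the other 11 samples Pearson's r was 0.72, 0.64, 0.56, 0.60 and 0.44. Among the members, r with Ddit3 over 13 samples was 0.92 for Nupr1, 0.91 for Trib3, 0.82 for Chac1, 0.69 for Atf4, 0.38 for Atf5 and -0.44 for Ddit4.

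Hspa5 encodes BiP, the main ER chaperone and a target of the ATF6 branch. It had 853, 313 and 784 CPM in WT tunicamycin samples 1 to 3, against 196, 210 and 252 CPM with vehicle. Sample 2 was thus above every WT vehicle sample for Hspa5 while its Ddit3, Trib3 and Atf4 were at or below the vehicle range's top. The LKO samples had Hspa5 at 127, 116 and 173 CPM with vehicle and 228, 142, 181 and 207 CPM with tunicamycin. The neutrophil marker sum was 9.34, 5.02 and 0.462 CPM in WT tunicamycin samples 1 to 3, and the bile duct sum 42.6, 31.9 and 8.48 CPM. The part of these cells in the Ddit3 values was not tested.

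**Figure D3:**
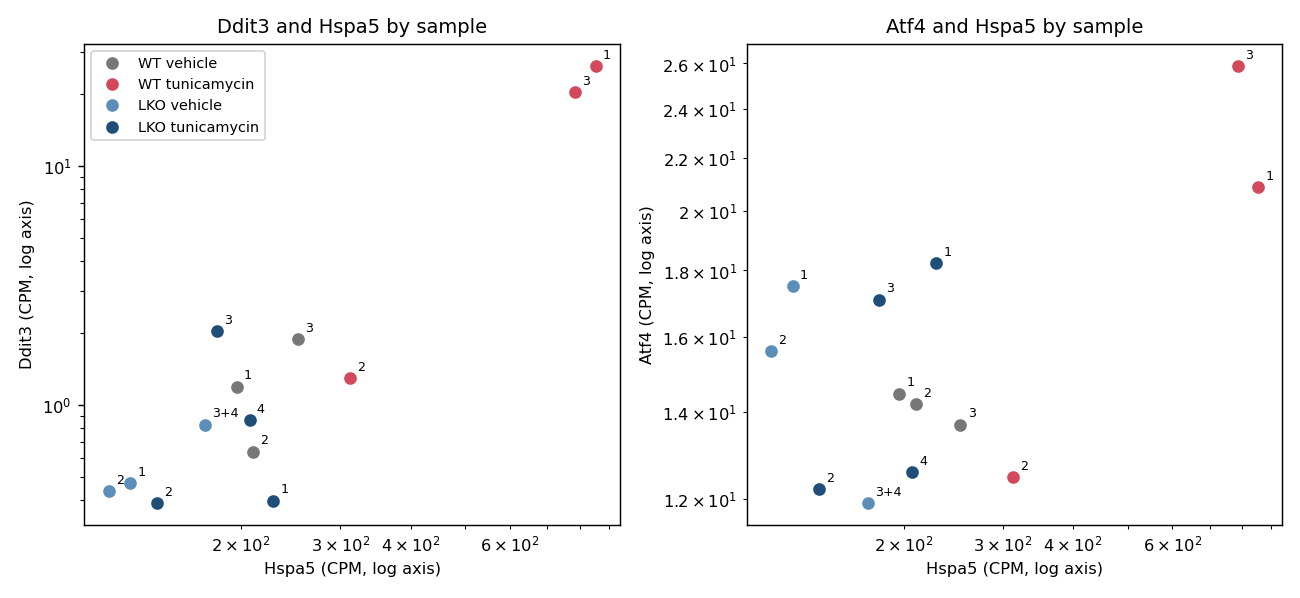
Ddit3 (left) and Atf4 (right) against Hspa5 in the 13 samples, in CPM on log axes, with points coloured by group and labelled by replicate. WT tunicamycin samples 1 and 3 are at the upper right of both panels (Hspa5 853 and 784 CPM), and WT tunicamycin sample 2 (313 CPM) lies beside the vehicle samples on the vertical axis.

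The wider branch was read from lists of known genes. Over all 9644 genes tested, 1426 had an unadjusted p under 0.05 in edgeR with tunicamycin in WT, 1172 with tunicamycin in LKO, 789 between genotypes with vehicle and 1524 between genotypes after tunicamycin. The ATF6 and XBP1 targets, ER chaperones and degradation factors of the parallel branches, had 11 of 24 called higher with tunicamycin in WT. Over all genes, 0.363% were called there in either direction. The 11 include Pdia4 (log2 fold change 1.63 ± 0.22 SE, edgeR adjusted p = 0.00717) and Derl3 (4.21 ± 0.63 SE, edgeR adjusted p = 0.0158). DESeq2 called 17 of the 24 in WT, and 150 of all 9642 genes. In LKO edgeR called 0 of 24, against 0.0311% of all genes, and 4 had an unadjusted p under 0.05. DESeq2 also called 0 there, with no adjusted p for 3 of the 24. After tunicamycin all 24 had a log2 difference below 0 between LKO and WT, and 12 of them were called, against 0.861% of all genes. The called ones include Hyou1 (-1.32 ± 0.20 SE) and Hspa5 (-1.78 ± 0.27 SE, edgeR adjusted p = 0.0103 for both). In the interaction 0 of the 24 were called and 23 had a value below 0. Of the 24, 15 had an unadjusted p under 0.05 in edgeR, as did 474 of all genes tested. The median log2 fold change of the 24 in WT was 0.77, beside 0.55 for the 9 members; the difference between the lists was not tested.

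Upstream of ATF4, all 16 genes of the eIF2 kinases, eIF2, its exchange factor eIF2B and the eIF2 phosphatase were tested, and both edgeR and DESeq2 called 0 in each of the 5 comparisons. However, DESeq2 gave no adjusted p for 8 of the 16 with tunicamycin in WT and for 13 in LKO. It also gave none for 1 between genotypes after tunicamycin, and genes without an adjusted p could not be called. Eif2ak3, which encodes PERK, had a difference of 0.19 ± 0.21 SE on the log2 scale with tunicamycin in WT, which did not pass (edgeR adjusted p = 0.719). At most 5 of the 16 had an unadjusted p under 0.05, after tunicamycin between genotypes. Of 15 bZIP partners and relatives 13 were tested and edgeR called 0, with at most 3 at an unadjusted p under 0.05, while DESeq2 called Junb between genotypes after tunicamycin. For these 13, DESeq2 gave no adjusted p for 3 with tunicamycin in WT and for 7 in LKO. Cebpg, which encodes a partner of ATF4, had 0.35 ± 0.13 SE with tunicamycin in WT (edgeR adjusted p = 0.206).

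Downstream targets outside the 10 genes were not called by edgeR either. Of 18 amino acid and one-carbon genes 7 were tested, edgeR and DESeq2 called 0, and at most 2 had an unadjusted p under 0.05 in edgeR. Among these 7, DESeq2 gave no adjusted p for 1 with tunicamycin in WT and for 3 in LKO. Asns, which encodes asparagine synthetase, ranged from 0.359 to 3.93 CPM within WT vehicle and from 0.399 to 5.70 CPM within LKO tunicamycin samples, a spread wider than the difference between any 2 group means. Of 17 further ATF4 and CHOP targets 10 were tested and edgeR called 0, with 4 at an unadjusted p under 0.05 in WT with tunicamycin, where DESeq2 called Sqstm1. For these 10, DESeq2 gave no adjusted p for 2 with tunicamycin in WT, 6 in LKO and 1 between genotypes after tunicamycin. Gdf15, which encodes a stress hormone, had 3, 1 and 3 reads in WT vehicle and 19, 9 and 8 in WT tunicamycin samples, and its log2 fold change was 2.51 ± 0.78 SE (edgeR adjusted p = 0.144). Its values in WT did not overlap, sample 2 included.

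All 12 tRNA synthetases reported as ATF4 targets were tested, and edgeR called 0. With tunicamycin in WT 7 of them had an unadjusted p under 0.05 and their median log2 fold change was 0.28, beside 0.01 over all genes. DESeq2 called Aars there and between genotypes after tunicamycin. It gave no adjusted p for 2 of the 12 with tunicamycin in WT and for 7 in LKO. Of 12 immediate-early genes 9 were tested, and Dusp1, a phosphatase that acts on MAP kinases, was lower with tunicamycin in both WT (-1.89 ± 0.30 SE) and LKO (-1.74 ± 0.25 SE, edgeR adjusted p = 0.0170 and 0.0269), while DESeq2 called none of the 9 in these comparisons and gave no adjusted p for 7 of them in WT and all 9 in LKO. All 10 glucocorticoid-responsive genes were tested, and Zbtb16, a zinc finger factor, had a lower level in LKO liver after tunicamycin than in WT (-1.78 ± 0.39 SE, edgeR adjusted p = 0.0440). DESeq2 called Zbtb16 there and with tunicamycin in LKO, and Lcn2, an acute-phase gene, with tunicamycin in WT. It gave no adjusted p for 2 of the 10 with tunicamycin in LKO. Of 8 p53 targets 6 were tested, edgeR and DESeq2 called 0 in each comparison, and at most 1 had an unadjusted p under 0.05 in edgeR. For these 6, DESeq2 gave no adjusted p for 3 with tunicamycin in WT, 5 in LKO and 2 between genotypes after tunicamycin.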

How the data were processed

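Polyadenylated liver RNA was measured in 14 libraries. The submitters' processing notes name Trimmomatic, STAR, Cufflinks and the mm10 build, with no versions. The deposited counts give STAR's whole reads for each gene, and the column of reads on the gene's strand was used, which held 99.5 to 99.6% of stranded reads. The FPKM values deposited by the authors were used for levels per length and for alternative fits with limma 3.58.1.

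Counts of 13 samples (LKO vehicle 3 and 4 summed) were fitted with edgeR 4.0.16 in R 4.3.3: TMM, filterByExpr by group, quasi-likelihood test, 1 mean per group, 9 residual degrees of freedom, Benjamini-Hochberg adjustment over 9644 genes and a threshold of 0.05. SE is the absolute log2 fold change over the square root of F. On simulated counts for the WT comparison over 9644 genes, 65% of 2-fold and 96% of 4-fold changes were recovered. The simulated spread followed the trend over all genes and did not copy the split among the WT tunicamycin samples. These rates therefore do not describe the members, several of which had few reads. CPM used the TMM library sizes. Nothing says whether the samples of a group were separate mice, so p-values measure the spread between these samples.

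The members, lists and tests were chosen with earlier results of these data known. Named genes are the members, Rbbp5, called genes of each list, the 5 genes outside the members most correlated with Ddit3, and a few list genes chosen after their values were seen (Mars, Eif2ak3, Cebpg, Asns, Gdf15 and those that DESeq2 alone called). Promoters came from RefSeq (GRCm38.p6). In all, 24 alternatives were run, among them DESeq2 1.42.0.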

Additional observations from a re-analysis of the deposited data

Results flagged for a closer look

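Among the 10 genes, each compared over the 4 LKO tunicamycin samples, 1 group of values had a sample apart from the rest. Atf3 had 0, 0, 0 and 1 reads there, so the gap of sample 4 to the others made up the whole range (a ratio of 1.0), and it rests on 1 read. Chance sets apart about 1 in 20 such groups.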

How the results depend on the processing

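Of 943 recomputed log2 fold changes of single genes, 912 kept their direction. Calls were less stable, and the reasons were not tested unless stated. In WT with tunicamycin the 2 calls became 0 with DESeq2, where Ddit3, Nupr1 and Trib3 had no adjusted p because of its own filter (unadjusted p = 0.000113, 1.92e-05 and 0.000464), 4 with no filter on low counts (Atf3, Ddit3, Trib3 and Nupr1), 0 with the groups of the comparison alone and 0 in all 4 FPKM fits, of which the one without the LKO vehicle 2 column was chosen after seeing the data (its highest FPKM was 27271, against 67201 to 73383 elsewhere). Nupr1 was not tested in the fit on the groups of the comparison alone. Leaving out each sample gave 0 to 3. Between genotypes after tunicamycin the 3 calls became 0 with the groups of the comparison alone and 0 in all 4 FPKM fits, and leaving out each sample gave 0 to 4. Trib3 was not tested there with the groups of the comparison alone or in the FPKM fit with a filter. The other 3 comparisons gave 0 in each alternative run. Over all genes, calls in WT with tunicamycin numbered 35, against 150 with DESeq2 and 289 with no filter, and after tunicamycin between genotypes 83, against 138 and 261. Of the ATF6 and XBP1 targets, 11 were called in WT by edgeR and 17 by DESeq2.

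Total count scaling moved the median of all genes by -0.19 in WT with tunicamycin and by 0.15 between genotypes after it. It took calls over all genes from 35 to 148 in the former, with Trib3 added, and from 83 to 164 in the latter, where the 3 member calls were the same. Same-numbered samples did not deviate together (3 of 18 pairs had r over 0.1, and 2 of 13 samples matched their own number best). With the replicate block there were 3 calls in WT (Trib3 added) and 2 between genotypes after tunicamycin, where Trib3 had -2.52 (adjusted p = 0.0732).

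Direction turned for some uncalled values. Several were near 0 in the main fit. Others were not, among them Trib3 (-0.76), Nupr1 (-0.39) and Ddit4 (0.35) between genotypes with vehicle and Ddit3 with tunicamycin in LKO (0.67). With tunicamycin in WT, Sesn2 was -0.026 or -0.11 in the FPKM fits without a filter (pseudocounts of 1 and 0.1). In LKO, Atf4 was -0.027 with total count scaling, Ppp1r15a was -0.0039 in FPKM without the LKO vehicle 2 column, and Ddit4 was 0.013 with DESeq2, 0.043 with the replicate block and 0.037, 0.084 and 0.037 in the FPKM fits. Nupr1 between genotypes with vehicle was 0.0012, 0.0031 and 0.0012 in the FPKM fits. Leaving out each sample with tunicamycin in WT, Ppp1r15a ranged from -0.045 to 0.40 and Sesn2 ranged from -0.31 to 0.44. Leaving out each sample with tunicamycin in LKO, Atf4 ranged from -0.14 to 0.13, Ddit3 ranged from -0.091 to 1.09, Sesn2 ranged from -0.17 to 0.84 and Ddit4 ranged from -0.27 to 0.58. Leaving out each sample between genotypes with vehicle, Atf4 ranged from -0.051 to 0.22, Trib3 ranged from -1.15 to 0.035, Nupr1 ranged from -0.81 to 0.28 and Ddit4 ranged from -0.28 to 0.84. Leaving out each sample between genotypes after tunicamycin, Atf5 ranged from -0.016 to 0.21. Depth limits Atf3, Nupr1, Trib3, Chac1, Sesn2 and Ddit3, which had at most 34 reads in all samples of a vehicle group together.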
